A study of Mus musculus with 44 samples.

Results

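The comparison of PCB126 with vehicle control drew on 22 of the 44 libraries of the series, chosen as every library of these treatments. All came from livers of male C57Bl/6J mice on a high-fat diet with 42% of kcal from fat, which both treatments shared. The control mice received vehicle, and the exposed mice a single oral exposure to PCB126 at week 2 of a 12-week study. The sources used here give neither their ages nor the dose. Each treatment had 5 input libraries, 5 libraries immunoprecipitated for N6-methyladenosine (m6A) and 1 pooled library precipitated with IgG. The deposited data for these libraries were 4 lists of m6A peaks, 1 per treatment against input and 1 per treatment against IgG.

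m6A is a methyl mark on adenosines within messenger RNA, placed by a nuclear writer complex around METTL3 and METTL14, removed by the erasers FTO and ALKBH5, and bound by reader proteins of the YTH family that affect decay, splicing and translation. It is typically found around stop codons, in long internal exons and in 3' untranslated regions. PCB126 is a dioxin-like polychlorinated biphenyl. In liver it binds the aryl hydrocarbon receptor, which pairs with ARNT and binds DNA at xenobiotic response elements, and genes such as Cyp1a1 are its classical targets.

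The authors called each list on all mice of a treatment at once, and no mouse has a value of its own. Differences between lists therefore have no replicate error and no test across animals, and the 95% intervals below, by Wilson's method, cover counting error only. Sequencing depth behind the lists is unknown. A gene was called gained when it had a peak in the PCB126 list and none in the control list called against the same reference, and lost in the opposite case. Fold enrichment is the authors' ratio of immunoprecipitate over reference for 1 peak, used to describe and rank peaks within a list. The lists hold no expression values, so more methylation per transcript and more transcript cannot be told apart, and in whole liver neither can fewer cells of a type and less RNA per cell. Between 91.8% and 96.3% of the peaks of each list lay on the plus strand, so absence of a gene from a list is weak information about its methylation.

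The PCB126 lists were longer than the control lists with either reference. Against input, the control list held 620 peaks at 267 genes and the PCB126 list 2178 peaks at 724 genes. Against IgG, the counts were 2091 peaks at 627 genes and 4129 peaks at 1159 genes. PCB126 over control came to 3.51 for peaks and 2.71 for genes against input, and to 1.97 and 1.85 against IgG. The exonic sequence under peaks came to 204 kb in the control and 742 kb after PCB126 against input, and to 568 kb and 1177 kb against IgG. The difference in length was wider among strong peaks: 25 control peaks and 119 PCB126 peaks had a fold enrichment of at least 10 against input, and 83 and 282 did against IgG. Against input, the fold enrichment had a median of 2.32 in the control and 2.45 after PCB126, and against IgG of 2.70 and 3.30.

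**Figure D1:**
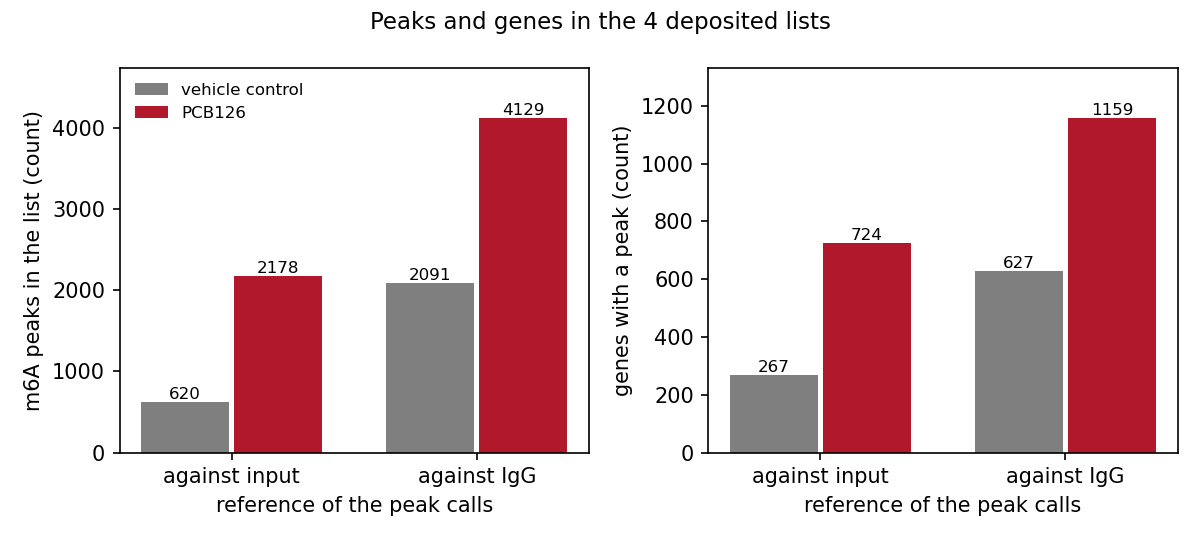
Number of m6A peaks (left) and of genes with a peak (right) in each of the 4 deposited lists, grouped by the reference of the peak calls; grey bars are vehicle control and red bars PCB126. Each bar is 1 list called for a whole treatment, so there is no error bar, and the PCB126 bar is the higher one in all 4 pairs.

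Of the 620 control peaks, 547 or 88.2% (85.5 to 90.5%) overlapped a PCB126 peak by at least 1 bp on the same strand, so the PCB126 list held most of the control list. In the other direction, 1727 of 2178 PCB126 peaks, 79.3% (77.5 to 80.9%), had no counterpart in the control list. Against IgG, the corresponding shares were 79.4% and 64.2%. With both lists cut to the length of the shorter by fold enrichment, 57.9% of control peaks were found after PCB126, and 57.1% of PCB126 peaks lacked a control counterpart. With the cut made by the authors' p-value, which had a Spearman correlation of 0.0031 with fold across the 2178 PCB126 peaks, the shares were 30.5% and 74.5%.

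The PCB126 peaks against input fell into 4 classes by where they lay. A total of 451 (20.7%) overlapped a control peak, with a median fold of 4.17 and a median width of 401 bp. Another 206 (9.46%) lay elsewhere in a gene with a control peak. These were weak and narrow, with a median fold of 1.89 and a median width of 150 bp. A further 806 (37.0%) lay in genes whose only control peaks had been called against IgG, and 595 of those (73.8%) overlapped such a control IgG peak. The remaining 715 (32.8%) lay at 256 genes with no control peak against either reference, with a median fold of 2.33.

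Presence in the control list varied with enrichment. When the PCB126 input list was divided by fold into 10 equal bins, 5.50% (3.18 to 9.37%) of the lowest bin overlapped a control peak. In the highest bin, with folds from 6.76 to 61.2, 62.4% (55.8 to 68.5%) did. Against IgG the shares ran from 26.4% in the lowest bin to 69.2% in the highest. The strongest PCB126 peaks thus lay mostly at places that also carried a control peak, and 37.6% of the highest bin against input did not. Overlap asks for 1 bp only. The overlapping PCB126 input peaks were also wide, at a median of 401 bp beside 150 to 201 bp in the other classes. The part of width in this trend was not tested.

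**Figure D2:**
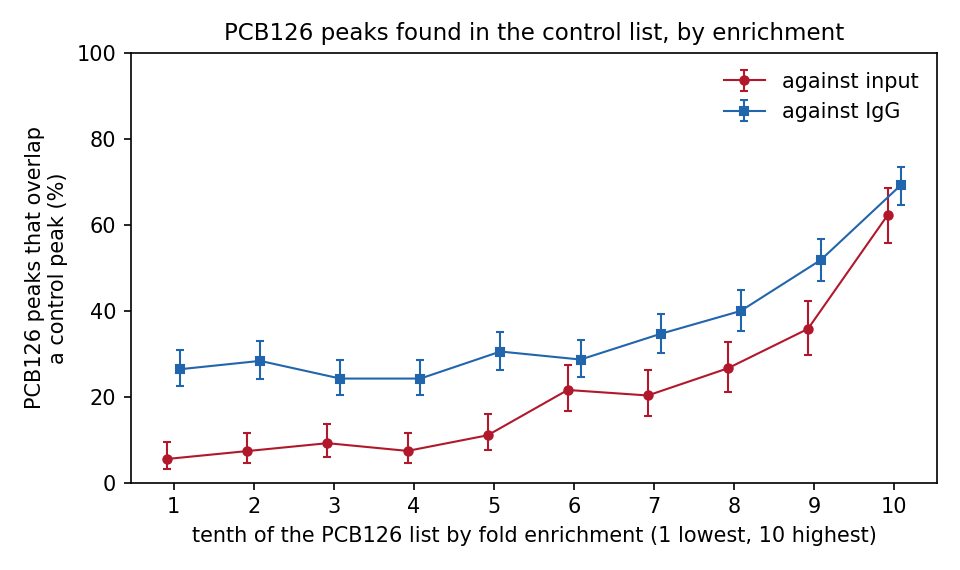
Share of PCB126 peaks (%) that overlapped a control peak of the same reference, in 10 equal bins of the PCB126 list in order of fold enrichment (1 lowest, 10 highest); red circles are the lists against input and blue squares those against IgG, with Wilson 95% intervals. The share was 5.50% in the lowest and 62.4% in the highest bin against input, and 26.4% and 69.2% against IgG.

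By gene, 477 of the 744 genes with a peak in either input list were gained, which is 64.1%. A total of 247 (33.2%) had a peak in both and 20 (2.69%) were lost. Against IgG, 605 of 1232 genes (49.1%) were gained and 73 (5.93%) were lost. Both references called 225 of 1275 genes gained (17.6%) and 2 lost (0.157%). A call of gained against input did not always mean that control liver lacked the mark, since 221 of the 477 genes had a control peak against IgG.

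The 225 genes gained against both references carried 664 PCB126 peaks against input. A single peak was found at 73 of them and 3 or more at 101. Their highest fold had a median of 3.67 (quartiles 2.57 and 5.25), beside 4.40 over all 724 genes of the PCB126 input list and 6.93 over the 223 genes found in all 4 lists. Only 16 of the 225 reached a fold of 10. Among the 72 genes of the PCB126 input list with the highest folds, from 13.8 upwards, 52 were shared with the control input list and 10 were gained against both references. Equal list lengths by fold left 112 of the 225 gained against both references. This cut takes peaks from the PCB126 lists only, so it could not add a gained gene.

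The strongest gained genes are described by their roles, and each had 0 control peaks against either reference. The 3 with the highest folds encode a phosphodiesterase, a GTPase-activating protein and a cyclin.

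Pde4b breaks down cyclic AMP. It held the highest fold of the whole PCB126 input list. It had 2 peaks up to 61.2 against input and 2 up to 47.6 against IgG, the strongest on chromosome 4 from 102605018 to 102605815 (mm10). Arhgap29, a GTPase-activating protein, had 4 peaks up to 40.7 against input and 4 up to 38.5 against IgG, the strongest on chromosome 3 from 122012137 to 122014861 in 2 exonic blocks. Ccnt2 encodes a cyclin of the elongation kinase P-TEFb. Its single input peak was a continuous 1650 bp on chromosome 1 from 127802214 to 127803863 with a fold of 35.2, and its highest fold against IgG was 24.8. The empty control lists and high input folds of these genes follow from how they were chosen. Their folds against IgG rest on the same m6A libraries as those against input.

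PCB126 acts on DNA through the aryl hydrocarbon receptor, so the 250 bases before the RefSeq start are shown for the 5 strongest gained genes, whether or not they hold the receptor's core motif, and for Rnf43, which has a peak at its start site. Egfr, Fem1a and Rnf43 are described below. The windows come from RefSeq's GRCm38.p6 table. Capitals mark the core of the xenobiotic response element, GCGTG, or CACGC where it lies on the other strand. Each sequence reads 5' to 3' on the gene's strand and ends at the base before the start.
Pde4b: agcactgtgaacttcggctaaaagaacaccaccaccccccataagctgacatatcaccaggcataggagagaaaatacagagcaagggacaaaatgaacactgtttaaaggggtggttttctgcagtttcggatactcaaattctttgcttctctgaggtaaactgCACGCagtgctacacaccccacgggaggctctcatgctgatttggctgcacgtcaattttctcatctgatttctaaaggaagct
Arhgap29: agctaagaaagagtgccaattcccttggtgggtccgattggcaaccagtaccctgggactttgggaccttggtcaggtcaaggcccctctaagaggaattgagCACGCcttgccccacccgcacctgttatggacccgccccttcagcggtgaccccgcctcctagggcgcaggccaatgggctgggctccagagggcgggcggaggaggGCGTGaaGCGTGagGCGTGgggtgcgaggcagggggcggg
Ccnt2: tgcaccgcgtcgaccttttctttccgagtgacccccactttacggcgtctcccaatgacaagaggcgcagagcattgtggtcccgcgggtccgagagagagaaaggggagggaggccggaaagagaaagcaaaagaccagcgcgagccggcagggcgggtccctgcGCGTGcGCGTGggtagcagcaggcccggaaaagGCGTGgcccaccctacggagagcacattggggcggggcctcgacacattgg
Egfr: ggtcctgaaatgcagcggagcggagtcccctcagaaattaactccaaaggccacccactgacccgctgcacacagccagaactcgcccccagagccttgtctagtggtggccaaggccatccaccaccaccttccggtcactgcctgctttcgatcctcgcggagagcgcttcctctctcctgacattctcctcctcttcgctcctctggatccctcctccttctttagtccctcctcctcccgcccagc
Fem1a: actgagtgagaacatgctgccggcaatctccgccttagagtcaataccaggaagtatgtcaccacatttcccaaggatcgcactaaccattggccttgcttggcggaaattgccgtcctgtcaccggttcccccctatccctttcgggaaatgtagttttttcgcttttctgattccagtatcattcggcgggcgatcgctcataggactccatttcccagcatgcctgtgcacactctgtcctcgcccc
Rnf43: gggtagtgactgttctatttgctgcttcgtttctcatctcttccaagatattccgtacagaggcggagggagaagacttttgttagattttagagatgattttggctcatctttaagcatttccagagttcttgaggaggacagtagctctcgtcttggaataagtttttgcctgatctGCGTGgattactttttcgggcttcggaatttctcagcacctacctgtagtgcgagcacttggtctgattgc

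The windows lie on chromosome 4 from 102421305 to 102421554 for Pde4b, on chromosome 3 from 121952979 to 121953228 for Arhgap29, on chromosome 1 from 127773914 to 127774163 for Ccnt2, on chromosome 11 from 16751953 to 16752202 for Egfr, on chromosome 17 from 56256543 to 56256792 for Fem1a and on chromosome 11 from 87662837 to 87663086 for Rnf43, all on the plus strand. Arhgap29 held 4 matches, Ccnt2 3, and Pde4b and Rnf43 1 each, while Egfr and Fem1a held 0. Of the 23 windows found for the strongest gained genes, 16 held a match and 7 did not, the latter also at Cic, Zfp1, Arhgef3, Ppp1r9b and Ankle2. The core is common: it was found on 1 strand or the other in 33.6% of 17491 windows of protein-coding genes. Among the genes gained against both references it was found in 48.7% (40.9 to 56.5%) of 154 windows, and among the genes present in all 4 lists in 33.3% (26.3 to 41.2%) of 150. The higher share was not particular to genes without a control peak: it was 49.1% (41.4 to 56.8%) of 159 windows at genes gained against input that had a control peak against IgG, and 44.4% of 496 at all genes with a PCB126 input peak. Base composition moved with this difference from the whole table. The gained genes' windows held a median of 16.5 CG pairs, those of the genes in all 4 lists 16.5 and the whole table's 10. Within windows of 0 to 4 CG pairs the share was 16.7% (5.84 to 39.2%) for the gained genes and 6.97% for the whole table. It was 38.9% (20.3 to 61.4%) and 27.4% in windows of 5 to 9 pairs, and 41.9% (26.4 to 59.2%) and 41.9% in windows of 10 to 14. In windows of 15 to 19 pairs it was 60.9% (40.8 to 77.8%) and 51.4%, and in those of 20 or more 59.4% (47.1 to 70.5%) and 62.0%. The 5 classes held only 18 to 64 gained genes each, so the intervals were wide. The whole table's share lay within the gained genes' interval in all 5, which such wide intervals make likely. The genes in all 4 lists had the same median of CG pairs as the gained genes and a lower share with the core. The part of base composition in these differences was not tested. A match is a run of letters and no evidence of binding.

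Receptors of growth and developmental signals were the next group. Egfr, the receptor of epidermal growth factor, had 3 peaks up to 23.9 against input and 7 up to 51.8 against IgG, the strongest spread over 5 exonic blocks on chromosome 11 from 16908973 to 16912870. Lgr4, a receptor for R-spondins that strengthens Wnt signalling, had 2 peaks up to 7.57 against input and 3 up to 14.2 against IgG. Fzd4, a Wnt receptor, had 1 peak of 7.45 and 2 peaks up to 17.2. Rnf43, a ubiquitin ligase that removes Wnt receptors from the cell surface, had 3 peaks up to 8.37 and 4 up to 16.4. One of its input peaks, on chromosome 11 from 87663020 to 87663219 with a fold of 2.70, covered the RefSeq start site itself and so runs into the end of the window shown above. Gdf6, a ligand of the Bmp family, had 1 peak of 6.80 and 1 of 7.20. Lrrc32, which holds latent Tgf beta at the cell surface, had 4 peaks up to 7.30 and 4 up to 14.8.

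Another group was regulators of transcription and chromatin. Cic, a repressor of genes downstream of receptor tyrosine kinases, carried the widest peak among the 30, 2749 bp in 1 block on chromosome 7 from 25270874 to 25273622, with a fold of 16.6. It had 5 peaks against input and 8 against IgG. Wac, a regulator of histone H2B ubiquitination, had 3 peaks up to 15.9 and 2 up to 29.8. The zinc finger genes Zfp703, Zfp148 and Zfp1 had highest folds of 12.7, 10.3 and 10.3 against input and of 12.2, 12.1 and 13 against IgG. Terf2ip, which encodes the telomere protein RAP1, had 1 peak of 13 and 1 of 13.8.

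Other members act in protein turnover, RNA silencing or glycosylation. Fem1a, a substrate receptor of a ubiquitin ligase, had 6 peaks with either reference, up to 19.5 against input and 24.6 against IgG. Ctso, a lysosomal cysteine protease, had 1 peak of 17.7 and 2 up to 12.5. Rb1cc1, a subunit of the kinase complex that starts autophagy, had 4 peaks up to 9.80 and 5 up to 10.4. Tnrc6c, which joins Argonaute proteins to mRNA decay, had the most peaks of the 30, with 10 against input and 9 against IgG, but a highest fold of 7.35 against input. C1galt1, the enzyme that extends the core of O-linked glycans, had 2 peaks up to 11.2 and 2 up to 10.4. Arhgef3, a guanine nucleotide exchange factor, had 4 peaks with either reference, up to 8.29 against input and 34.4 against IgG. The remaining named genes were Tmem28, Znhit2, Pakap, Ppp1r9b, Naa30, Ankle2 and Fam32a, with highest folds from 6.73 to 16.7 against input. Pakap entered with 2 identifiers at the same place, so it is 1 locus counted as 2 genes.

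**Figure D3:**
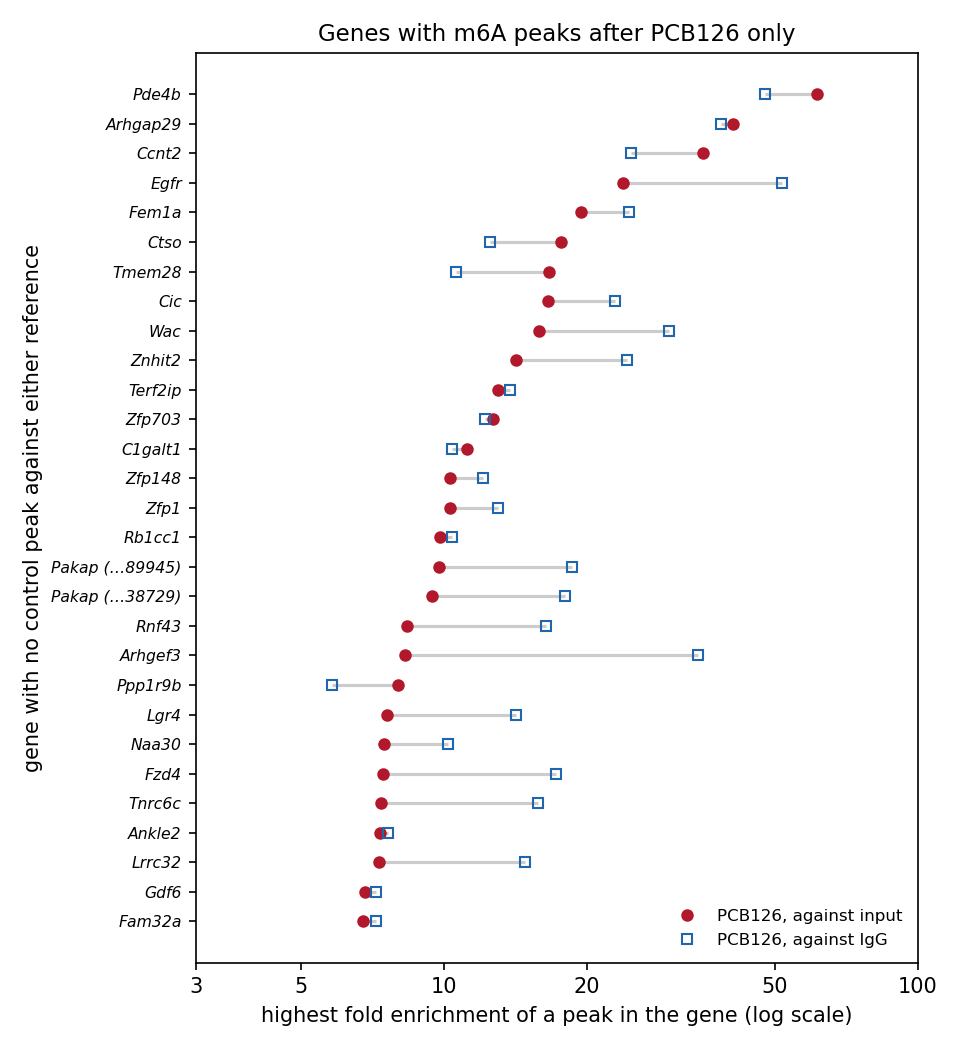
Highest fold enrichment of a PCB126 peak (log scale) at the genes gained against both references with the highest values against input; red circles are the input list and blue open squares the IgG list, joined by a grey line. None of these genes had a control peak, Pde4b leads with 61.2 against input and 47.6 against IgG, and Pakap stands in 2 rows because of its 2 identifiers.

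Chpf2, which helps to polymerise chondroitin chains, was chosen after its values were seen, because its gained peak held a whole microRNA hairpin. The peak of 350 bp on chromosome 5 from 24592103 to 24592452 had a fold of 4.30 against input and 6.00 against IgG, and the control lists held no peak in the gene. The hairpin of miR-671 lies within it, from 24592114 to 24592211 on the plus strand. The mature sequences of both arms, from RefSeq's GRCm38.p6 table, are shown with the seed, bases 2 to 8, in capitals.
mmu-miR-671-5p: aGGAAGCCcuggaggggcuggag
mmu-miR-671-3p: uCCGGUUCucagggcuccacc

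The arms have different seeds. No other hairpin of the table lay whole in an exonic block of a peak in any of the 4 lists. Whether the marked RNA is the Chpf2 transcript or the precursor of the microRNA cannot be told apart in these lists.

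The other exposures of the series allow the gained genes to be followed in further mice, although all exposures share 1 control. Of the 225 genes, 116 or 51.6% (45.1 to 58.0%) had a peak in the input list of mice given Aroclor1260 and PCB126 together, and 147 (65.3%) had one in that exposure's IgG list. With Aroclor1260 alone, 10 (4.44%) had a peak against input and 57 (25.3%) against IgG. The Aroclor1260 lists held 506 and 2082 peaks, and the combination's 2284 and 3683. The length of the lists thus moved with these shares, and its part in them was not tested. The same shares were not taken over all genes of the PCB126 lists, so those of the 225 cannot be called high or low. Arhgap29 had 3 input peaks up to 26.1 with the combination. A total of 60 genes (26.7%) had a peak in none of these other lists. Pde4b, Ccnt2 and Fem1a were among them, as were Rb1cc1, Naa30 and Ankle2, so 3 of the 5 strongest gained genes were found with PCB126 alone and not with PCB126 given in the combination.

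Lost genes were few. Kbtbd7, a substrate adaptor of a ubiquitin ligase, had 1 control peak of 4.60 against input and 2 up to 4.60 against IgG, and no PCB126 peak. Omd, a matrix proteoglycan, had 2 control peaks up to 3.8 with either reference and no PCB126 peak. They were the only 2 genes lost against both references, at a share of 0.157%.

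Apob, the protein scaffold of lipoproteins secreted by the liver, was the strongest gene lost against input only. Its 8 control peaks covered 9346 exonic bases with folds up to 13.9, and the PCB126 input list held 0. Against IgG, however, it had 6 control peaks up to 10.8 over 12291 exonic bases, and 9 PCB126 peaks up to 8.10 over 4304. The call of lost thus rested on the input reference, but the IgG peaks also covered fewer exonic bases after PCB126. Mbl1, a mannose-binding lectin of plasma, had 4 control peaks and 0 PCB126 peaks against input, and 4 and 4 against IgG. Slco1b2, which takes up organic anions from blood, had 4 and 0 against input and 5 and 6 against IgG. Ppig, a prolyl isomerase, had 4 and 0 against input and 4 and 3 against IgG, and Ifngr1, a chain of the interferon gamma receptor, had 1 and 0, and 1 and 2. St6gal1, a sialyltransferase, and Cnnm2, a magnesium transporter, were lost against input and gained against IgG, with 3 and 4 PCB126 IgG peaks. Car3, a carbonic anhydrase, Otub2, a deubiquitinase, and Mgst1, a microsomal glutathione transferase, had control input peaks of at most 2.31 and no peak in either IgG list. Of all 20 genes lost against input, 11 had a PCB126 peak against IgG.

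Control peaks without a PCB126 counterpart were weak. There were 73 of them at 49 genes, with a median fold of 1.70, beside 2.43 for the control peaks that were found. The PCB126 IgG list held 42 of the 73 (57.5%), and 11 lay at genes with no PCB126 peak against either reference.

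Genes with a peak in both treatments mostly had more marked sequence after PCB126. Among the 247 such genes against input, 85 had more peaks, 111 the same number and 51 fewer. Exonic bases under peaks were more in 192, and the ratio of PCB126 to control had a median of 1.47 (quartiles 1.06 and 2.21). Against IgG the median ratio over 554 genes was 1.30. Wider peaks and a lower limit of detection cannot be told apart here.

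The largest gains in number of peaks were at B3galt1, a galactosyltransferase, with 3 control and 9 PCB126 peaks against input, and at Fmo5, a flavin-containing monooxygenase, with 2 and 7. Against IgG, however, B3galt1 had 7 and 6. Cp, the plasma copper oxidase ceruloplasmin, had 3 and 7 against input and 7 and 10 against IgG. Son, which organises nuclear speckles, had 7 and 11, and Golgb1, a large Golgi tether, 3 and 7 with 401 and 3945 exonic bases. Malat1, a nuclear long noncoding RNA on the minus strand, had 1 and 5. Tmbim6 had 1 and 5, Dnajb12 1 and 4, Tax1bp1 3 and 6 and Bmp2 1 and 4. Against IgG, 5 of these 10 genes had more peaks after PCB126 and 3 had fewer. The 3 were B3galt1, Son with 12 and 9, and Golgb1 with 17 and 11 peaks over 6197 and 8432 exonic bases.

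Fewer peaks did not mean less marked sequence. Pdp2, a phosphatase that activates pyruvate dehydrogenase, had 6 control peaks with 1354 exonic bases and 1 PCB126 peak of 1948 bases. Hexim1, an inhibitor of P-TEFb, had 3 control peaks with 1451 bases and 1 PCB126 peak of 1798 bases, which reached its start site. Ppp1r15b, which directs dephosphorylation of the translation factor eIF2 alpha, had 3 peaks with 1501 bases and 1 of 2398 bases. Ccdc71 had 4 with 994 bases and 1 of 1337. Apon had 7 with 809 bases and 2 with 1102, Bcl9l, a Wnt coactivator, 6 with 2955 and 2 with 3801, and Bach1, a haem-regulated repressor, 6 with 1550 and 4 with 2296. Fam214a and Paqr9 had 7 and 4, and 6 and 4 peaks, each with more bases after PCB126. In 9 of the 10 genes with the largest drop in number, PCB126 peaks covered more exonic bases, and the exception was Zfpm1 with 1584 and 1432.

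**Figure D4:**
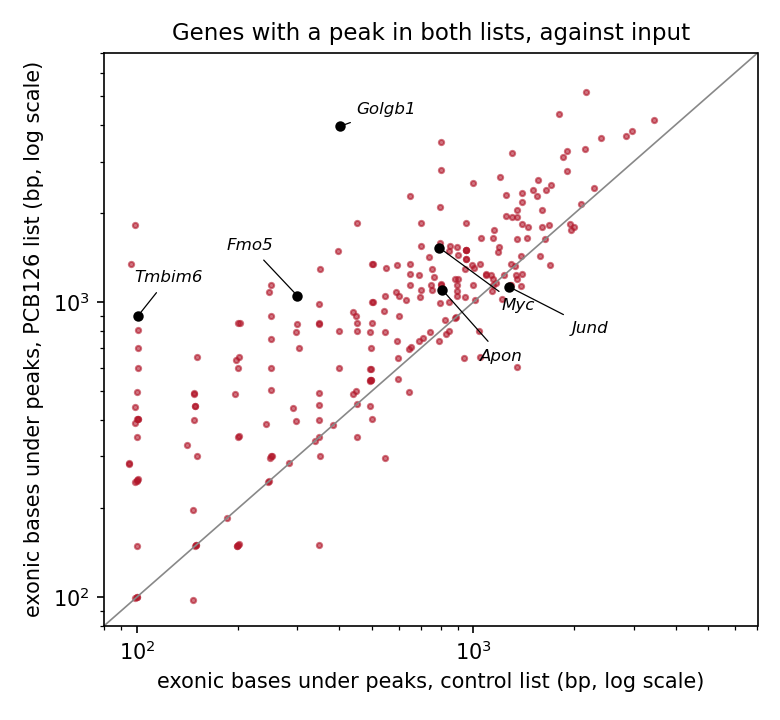
Exonic bases under m6A peaks (bp, log scales) at each of the 247 genes with a peak in both input lists, vehicle control on the horizontal and PCB126 on the vertical axis; the grey line marks equal values and black points are named genes. Points lie above the line for 192 genes, and Golgb1 stands at 401 and 3945 bases.

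Most of the genes with the strongest peaks after PCB126 were shared with the control, 52 of the 72 named above by their fold. The shared genes named next were chosen by their PCB126 fold against input, which favours a higher fold there than in the control. Their PCB126 folds against IgG rest on the same m6A libraries. Jund, a subunit of AP-1, had 1 peak in each of the 4 lists, with folds of 37.3 in the control and 50.5 after PCB126 against input and of 41.5 and 208 against IgG. Bmp2, a ligand released by liver endothelial cells, had highest folds of 18.6 and 47.2 against input and 37.5 and 40.6 against IgG. Agtr1a, the angiotensin receptor, had 16.9 and 39.1, and 30.9 and 66.1. Myc had 2 control peaks with 792 exonic bases and 1 PCB126 peak with 1532, at highest folds of 8.93 and 21.4 against input. Against IgG its exonic bases were 1138 and 1087, at highest folds of 18.2 and 29.4. Ythdf3, an m6A reader itself, had 2 control and 3 PCB126 input peaks, up to 10.2 and 27.7. Against IgG the numbers went the other way, with 5 control and 2 PCB126 peaks, up to 36.4 and 42.9. The other 15 of the 20 strongest shared genes were Gid8, Usp10, Bhlhe40, Cebpb, Rnf144b, Sucnr1, Ubtd1, Fga, Crp, Gm4951, Son, Tnfaip8l1, Amotl2, Tnfsf10 and Gadd45g, with PCB126 folds from 19.1 to 36.9 against input. They take in regulators of inflammation and stress, such as the transcription factor Cebpb, and plasma proteins such as fibrinogen alpha (Fga) and C-reactive protein (Crp).

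Gene lists were read against the background of 64.1% gained against input and 17.6% gained against both references. None of the 18 classical targets of the aryl hydrocarbon receptor had a peak in any of the 4 lists, and neither did the 7 members of the receptor's complex. Strand limits this reading, since 6 of the 16 targets of known strand lie on the plus strand. Cyp1a1 and Tiparp are among the 6, and were absent too.

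Of the members with a peak in either input list, the share gained was 100% for chromatin (12 of 12), 87.5% for Tgf beta, Bmp and Wnt signalling (7 of 8), 83.3% for nuclear receptors (5 of 6) and 76.9% for zinc finger genes (20 of 26). It was 44.4% for AP-1 and for hepatocyte transcription factors (each 4 of 9), 40% for ubiquitin ligases (6 of 15), 33.3% for coagulation (2 of 6) and for cholesterol and apolipoproteins (3 of 9), and 28.6% for acute phase and plasma carriers (2 of 7). The first 4 of these lists stood above the background of 64.1% and the other 6 named here below it, on few genes each and with no test. Against IgG, where 49.1% of all genes were gained, 9 chromatin members had a control peak and 18 a PCB126 peak. The counts against IgG were 4 and 7 for Tgf beta, Bmp and Wnt, 4 and 5 for nuclear receptors and 13 and 29 for zinc finger genes. For gains against both references, the base was members marked under either reference. Among the lists named so far, zinc finger genes (13 of 31), Tgf beta, Bmp and Wnt (3 of 9) and chromatin (5 of 18) were above the background of 17.6%. Ubiquitin ligases (5 of 20) were above it too, in a list that leaves out Rnf43 and so does not cover all ligases. Below it were AP-1 (2 of 12), nuclear receptors (1 of 6) and hepatocyte transcription factors (1 of 9). So were cholesterol (1 of 10), coagulation (1 of 11) and acute phase (1 of 16), again with no test. Lists not named so far lay on both sides too. Above both backgrounds were glutathione and metal (4 of 5 against input, 3 of 7 against both references) and elongation (2 of 3, 2 of 4). Below both were cytochrome P450 (2 of 4, 0 of 9) and solute carriers (4 of 9, 1 of 18).

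Chromatin regulators and corepressors went from 0 members in the control input list to 12 of 76 in the PCB126 input list. Cic, Wac, Chd9, Asxl1 and Phf12 were gained against both references, with highest input folds of 16.6, 15.9, 4.88, 4.00 and 4.22. Kmt2e and Setd2, which act on histone H3 methylation, had 8 peaks up to 6.23 and 11 peaks up to 14.6 against input. Setd1b, Arid1b, Smarca2, Chd7 and Asxl2 were likewise gained against input only. All 7 had control peaks against IgG, from 8 at Arid1b to 13 at Smarca2, and the control IgG list held 9 members in all. Zinc finger genes of the Zfp and Zbtb families had 6 members in the control input list and 26 of 458 in the PCB126 list. Of the 20 gained, 13 were gained against both references, such as Zfp646 with 12 peaks up to 3.71 and Zfp638 with 7 up to 6.29. The median highest fold was 5.58 for the chromatin list and 4.48 for the zinc finger list, beside 4.40 over all genes of the PCB126 input list.

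Signalling lists held several receptors. Of the 50 genes of Tgf beta, Bmp and Wnt signalling, 1 had a control input peak and 8 had a PCB126 input peak. Lgr4, Fzd4 and Fzd7 were gained against both references. Acvr2a, a receptor for activins, had 1 input peak of 15.4, but against IgG it had a control peak of 15 and no PCB126 peak. Fzd8 and Apc had 5 and 15 control IgG peaks, and Id3 had 1 PCB126 input peak of 1.84 with no IgG peak. Among 52 genes of growth factor and tyrosine kinase signalling, 5 and 9 had an input peak. Egfr and its adaptor Gab1 (1 minus-strand peak of 4.17 against input and 1 of 5.40 against IgG) were gained against both references, and Klb and Il6st against input only. Errfi1, Spry1 and Dusp6, feedback inhibitors of this signalling, had peaks in all 4 lists. Pik3ca had 4 PCB126 peaks up to 54.0 against IgG and none in the other lists of the 2 treatments. Cyclic nucleotide signalling had 0 and 3 of 32, with Gnas and Akap9 also holding control IgG peaks. Hippo and actin response had 1 and 2 of 19, with Lats1 gained against input.

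Transcription factor lists held both shared and gained genes. For AP-1 and immediate early genes, 5 of 35 had a control input peak and 9 a PCB126 input peak. Jun, on the minus strand, had 4 peaks up to 6.00 against input and 4 up to 7.6 against IgG with none in the control. Jund, Myc, Klf2, Klf9 and Gadd45g were shared. Hepatocyte transcription factors had 5 and 9 of 26. Tbx3 was gained against both references, with 5 input peaks up to 4.67. Hnf4a, a master regulator of hepatocyte identity, had 5 PCB126 input peaks up to 5.68 and 0 control input peaks, but 5 control peaks against IgG, as Cebpd and Zhx2 also had control IgG peaks. Nuclear receptors had 1 and 6 of 34, with Pparg gained against both references at 3 peaks up to 1.86. Rora had 4 PCB126 input peaks up to 15.1 and none in the other 3 lists. The circadian list had 2 and 3 of 19. The elongation list had 1 and 3 of 31, since Ccnt2 and Aff1, a scaffold of elongation complexes with 7 input peaks up to 4.00, joined Hexim1.

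Metabolic and secretory lists also held both shared and gained genes. Among 34 genes of fatty acid oxidation and PPAR, 2 and 6 had an input peak, and Ppara, the receptor that drives this programme, was shared with 1 and 3 peaks. Of 30 genes of insulin and glucose response, 4 and 6 did. G6pc, which releases glucose from glucose 6-phosphate, had 4 PCB126 peaks up to 4.46 against input and 3 up to 7.38 against IgG, and Txnip, an inhibitor of thioredoxin, 3 up to 5.65 and 4 up to 14.8, with 0 control peaks. Foxo1, Trib1, Ppp1r3b and Ppp1r3g were shared. The glutathione and metal list had 1 and 5 of 32, with Gsta3, Txnip and Secisbp2 gained against both references. Gclc, the catalytic subunit for glutathione synthesis, had 6 PCB126 peaks up to 7.40 against IgG and none in the other 3 lists of the comparison. The cholesterol and apolipoprotein list had 6 and 8 of 31, with Apob lost against input. Coagulation had 4 and 6 of 26, and Fgb, on the minus strand, was gained against both references with 2 peaks up to 4.10 and 2 up to 10.2. Acute phase and plasma carriers had 5 and 6 of 41, cytochrome P450 genes 2 and 3 of 41, lipogenesis 1 and 2 of 36, bile acid transport 1 and 1 of 23 and solute carriers 5 and 8 of 384. Against IgG, the counts were 10 and 14 for acute phase and 3 and 8 for cytochrome P450. They were 4 and 5 for lipogenesis, 2 and 4 for bile acid transport and 6 and 14 for solute carriers. The reductase Por, electron donor of the P450 enzymes, had 6 PCB126 input peaks up to 2.28 and 7 control IgG peaks. Cyp2c29 and the Cyp4a genes share sequence with close relatives and are uncertain.

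Lists on protein and RNA turnover held both directions. Ubiquitin ligases had 9 and 14 of 83: Fem1a, Klhl21, Klhl25, Trim8 and Socs4 were gained against both references and Kbtbd7 was lost. The list leaves out the ligase Rnf43, which was also gained against both references. The unfolded protein response had 2 and 5 of 31, where Xbp1, Atf4 and Herpud1 were gained against input and held control IgG peaks. Death receptors had 1 and 2 of 38, and RNA silencing and decay 1 and 3 of 42. Mitochondrially encoded genes had 2 and 4 of 37, with COX1 and ND4 shared and ND6 and mt-Rnr2 gained at 3.37 and 3.92. Of the m6A machinery, the writer subunit Zc3h13 had 5 PCB126 input peaks up to 14.2 and 0 control input peaks, but 7 control IgG peaks up to 10.8. The nuclear reader Ythdc1 had 2 identifiers, 1 with no control peak and 1 with 2 control IgG peaks. Thus 0 and 1 of 12 writers, 1 and 2 of 13 readers and neither of the 2 erasers had an input peak.

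Few markers of liver cell types had a peak. Hepatocyte markers had 2 of 12 in the control and 4 in the PCB126 list, endothelial markers 2 and 2 of 12 (Bmp2 and Eng), and stellate markers 1 and 1 of 9 (Hand2). No marker of Kupffer cells (8), cholangiocytes (6), lymphocytes (6) or erythroid cells (4) had an input peak in either treatment. Alb, Ttr and Apoa2, which define hepatocytes, had no peak in any of the 4 lists, so the labelled tissue could be checked only through Apoa1, Tat, Fgb, Hnf4a, Pck1 and Cyp2e1.

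**Figure D5:**
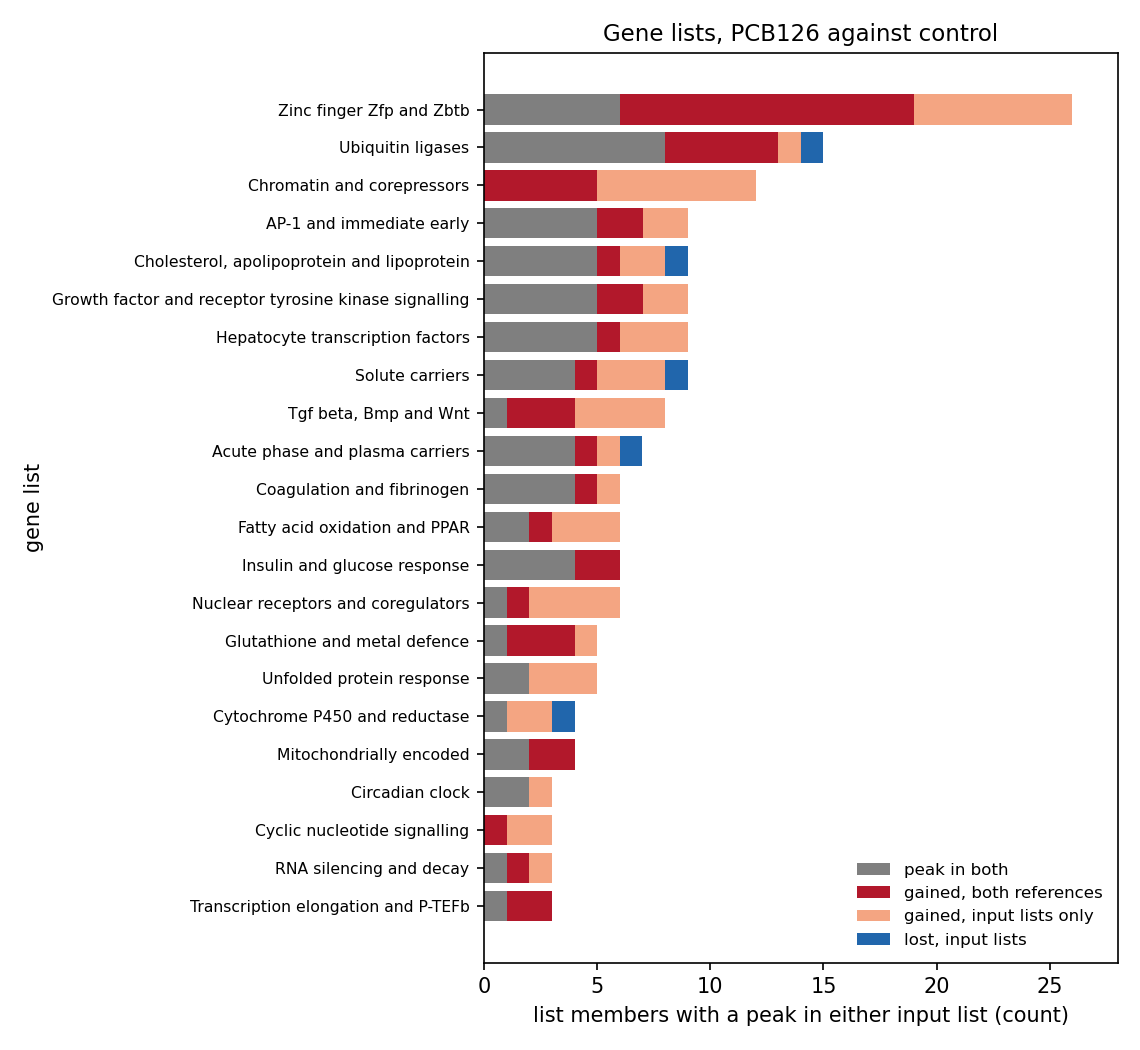
Number of members of each gene list with a peak in either input list, for lists with at least 3 such members; grey is a peak in both treatments, dark red gained against both references, light red gained in the input lists only and blue lost in the input lists. The chromatin list has no grey part, with 12 members gained and 0 shared.

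Peaks lay at similar places along genes in both treatments. On a scale from 0 at the start to 1 at the end of the gene span, the median position was 0.78 in the control list and 0.78 after PCB126 against input. The last 20% of the span held 46.2% (42.2 to 50.4%) of control peaks and 47.3% (45.1 to 49.5%) of PCB126 peaks. Within the PCB126 list, that last stretch held 42.8% (39.0 to 46.7%) of peaks at genes gained against both references and 52.1% (48.5 to 55.6%) of peaks at genes with control peaks against IgG only. Peaks at new places of genes with a control peak lay in the first 20% of the span in 19% (14.1 to 25.2%), beside 12.8% (9.88 to 16.4%) of the peaks that overlapped a control peak.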

How the data were processed

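Per the labels' protocols, liver RNA was precipitated with the Magna MeRIP m6A kit. The tools named were BWA 0.7.17, with mm10 as the build, Trimmomatic, FastQC 0.10.1 and bcl2fastq 2.20.0.422, per the submitters' processing notes. The deposited lists are titled as MeTPeak output; the sources used here do not give its version, settings or annotation. Per the file headers, each peak has a fold enrichment (a linear ratio), a p-value and a log10 false discovery rate, all the authors' own; the largest false discovery rate was 0.0490.

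Peaks were shared when their spans, on 1 chromosome and strand, had 1 bp or more in common. Genes were the identifiers of the name column. They took symbols by position from RefSeq's GRCm38.p6 table when a gene held at least 80% of the exonic peak bases: 1348 of 1512 identifiers over all 8 lists were named. Overlapping genes and near-identical families are uncertain. Promoter windows and microRNAs were matched by symbol and by position in RefSeq's tables. The overlap code was tested on simulated data (Python 3.11.15, pandas 2.3.3).

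Genes were named by rule: the 30 strongest gained against both references, all lost against both and the 10 strongest lost against input, the 20 strongest shared, the 10 largest gains and losses in number of peaks, and members of the gene lists and marker lists with a peak. Some of these items are not reported here. The comparison, members and lists were chosen with earlier results of these data known. Alternatives were the IgG lists, other overlap rules, fold and false discovery rate minimums, equal list lengths, the plus strand, loci joined by symbol and either reference in place of both.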

Additional observations from a re-analysis of the deposited data

How the results depend on the processing

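The share of control peaks found after PCB126 was 88.2% and became 79.4% with the IgG lists, 45.6% with a reciprocal overlap of 50%, 92.1% with a fold of at least 2, 57.9% and 30.5% with equal numbers of peaks by fold and by p-value, and 56.0% with the IgG lists at equal number. The share of PCB126 peaks absent from the control list was 79.3% and became 64.2% with the IgG lists, 86.9% with the reciprocal overlap, 57.1% and 74.5% with equal numbers by fold and by p-value, and 55.1% with the IgG lists at equal number. Genes gained against input were 477, and 263 and 168 with equal numbers by fold and by p-value. Genes lost against input were 20, and 73 with the IgG lists, 13 with a fold of at least 2, 71 and 163 with equal numbers by fold and by p-value, and 157 with the IgG lists at equal number. Genes with a peak in both treatments were 247, and 554 with the IgG lists, 104 with equal numbers by p-value and 470 with the IgG lists at equal number. Genes gained against both references were 225, and 112 and 70 with equal numbers by fold and by p-value, and 857 with either reference. Genes lost against both were 2, and 19 and 75 with equal numbers, and 91 with either reference. Equal numbers by construction keep fewer PCB126 peaks; the cause of the other differences was not tested. The other 29 values of these results stayed within the main interval or within 1.5 times the main count.

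With equal numbers by p-value, 5 of the 30 strongest gained genes stayed gained. By fold all 30 did, which followed from their choice, since the cut kept the highest folds and removed no control peak. St6gal1 and Cnnm2 reversed with the IgG lists, at 3 and 4 more PCB126 than control peaks. No paired analysis was possible because each list pools the 5 mice of a treatment; for the same reason no replicate could be left out. Depth is unknown, so whether missing control peaks reflect fewer reads was not tested.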
